A study of Mus musculus with 227 samples.

Results

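Cells sorted as 6C3+ skeletal stroma were compared with cells sorted as mSSC, the mouse skeletal stem cell, in single-cell RNA sequencing of newborn mouse long bones. All cells with at least 1000 genes at an FPKM of at least 1 were taken, which left 34 of 92 6C3+ cells and 37 of 37 mSSC cells, 71 of the 227 cells of the series. FPKM counts fragments per kilobase of transcript, scaled to the mapped fragments of the cell. The 6C3+ cell just below the limit of 1000 genes had 787 genes and the one just above it 1031. The next kept 6C3+ cell had 1895 genes, so the larger gap lay above the cell with 1031. Each difference below is 6C3+ minus mSSC, so that a positive value is higher in 6C3+.

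Both populations came from BL6 mice at postnatal day 3, with bone and bone marrow as the labelled tissue. Live cells negative for CD45 and Ter-119 and positive for integrin AlphaV were sorted by flow cytometry. The 6C3+ gate further required absence of Thy and presence of 6C3 and CD105, whereas the mSSC gate required absence of Tie2, Thy, 6C3 and CD105 and presence of CD200. The other populations of the series were CSP and THY+, and every cell was captured on the Fluidigm C1 system. No animal, litter or culture is named, so each population was treated as 1 sample and cells were not counted as replicates. No p-value was computed, and an SD over cells describes their spread only.

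Cartilage is built on a fibril of collagens II, IX and XI filled with aggrecan and bound by matrilins and small secreted proteins, a set of genes that the transcription factor SOX9 switches on. Periosteum, joint lining, tendon and marrow stroma instead build a fibrous matrix of collagens I, III, V and VI. The mSSC gate is known as marking a self-renewing cell that gives rise to cartilage, bone and stroma, and 6C3+ cells as one of its stromal descendants. The comparison therefore asks which transcripts separate the stem cell gate from a stromal gate.

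The cells kept from both gates had similar numbers of genes but not similar endogenous signal. The limit of 1000 genes had removed 58 of 92 6C3+ cells and 0 of 37 mSSC cells. The median was 2639 genes (1031 to 5572) in 6C3+ and 2534 (1164 to 4390) in mSSC cells. The FPKM summed over the endogenous genes of a cell had a median of 366748 in 6C3+ and 906237 in mSSC cells, and the added ERCC spike-in RNAs took a median of 18.9% (0.23 to 74.2) against 0.0012% of the FPKM. In the first 2 index rows of 6C3+, with 6 cells, the spike-in share had a median of 0.893%, against 21.3% in the 28 cells of the other 6 rows. The library indices of the 2 populations shared no row and no column, which means that index set and gate cannot be told apart. For this reason every difference was computed both for FPKM as deposited and after each cell was rescaled to an endogenous total of 1000000. A difference printed alone, with no scale named, is the one as deposited. The rescaling moved the median difference over the 8650 genes compared from -0.13 to 0.25 on the log2(FPKM + 1) scale, a shift of 0.38.

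Transcripts of the sort antigens only partly followed the gates. Enpep, which encodes the 6C3 antigen, was found in 9 of 34 6C3+ cells (26.5%, 95% interval 12.9 to 44.4) and listed at 0 in all 37 mSSC cells, which allows a share of up to 8.11%. Its highest 6C3+ value was 180 FPKM. Eng, which encodes CD105, was found in 3 of 34 6C3+ cells, gated as CD105+, and in 8 of 37 mSSC cells, gated as CD105-. These shares, 8.82% (1.86 to 23.7) and 21.6% (9.83 to 38.2), run against the order of the gates with overlapping intervals. Cd200 was found in 11 of 34 and 8 of 37 cells, Itgav, the AlphaV integrin, in 22 of 34 and 24 of 37, and Thy1 and Ptprc (CD45) in none of either. Tek, which encodes Tie2, was found in 1 6C3+ cell.

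Markers of other cell types were counted in both gates. Of 12 endothelial markers, 7 were found in no 6C3+ cell and 8 in no mSSC cell, and their summed level had a median of 0 FPKM in both (highest 93.7 and 420). One or more endothelial markers were found in 6 of 34 and 4 of 37 cells. Of 10 myeloid markers 9 and 7 were found in no cell, of 7 erythroid markers 7 and 5, and of 10 B lineage markers 9 and 8. The 11 pericyte and smooth muscle markers had a median sum of 27.9 FPKM (0 to 3171) in 6C3+ and 84.4 FPKM (0 to 22810) in mSSC cells, and 7 and 2 cells held at least 3 of them. Among them Pdgfrb was held by 20 of 34 against 8 of 37 cells and Cspg4 by 17 against 31. Of 8 skeletal muscle markers 6 and 5 were found in no cell, with a median sum of 0 FPKM (highest 18.4) and 2.37 FPKM (highest 357), and Acta1, skeletal muscle actin, was held by 6 of 34 against 19 of 37 cells. Of 8 osteoclast markers 6 were found in no cell of either gate, with a median sum of 14.9 FPKM (highest 740.3) and 0 FPKM (highest 2288). Their part in the differences below was not tested. Of the 8 Schwann cell markers 5 and 6 were found in no cell, while S100b, which cartilage also expresses, was found in 9 of 34 6C3+ and 30 of 37 mSSC cells.

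A small group of mSSC cells stood apart from the others. Of 30 cartilage matrix genes, 33 of 37 mSSC cells held at least 20, and the remaining 4 cells held 3, 6, 9 and 13. The cells with 3, 9 and 13 carried library index row S516, in which another mSSC cell held 25. The cell with 6 carried row S515. The part of the index row was not tested. These 4 cells had 2620 to 3243 genes, inside the range of the others, and all 4 held Col1a1, Lgals1 and Postn. Of the 9 mSSC cells with Postn, 4 were among them, as were 2 of the 3 with Pdgfra. Without these 4 cells the counts below were 84 genes higher and 381 lower as deposited, 322 and 153 rescaled, and 199 and 109 by share of cells, against 59 and 351, 246 and 126, and 154 and 86 with them.

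Genes were compared where at least 10% of the cells of either population held them. As deposited, 59 of 8650 genes (0.682%) were at least 4-fold higher in 6C3+ and 351 (4.06%) at least 4-fold lower, meaning past 2 on the log2(FPKM + 1) scale. After rescaling 246 (2.84%) were higher and 126 (1.46%) lower, so the split between higher and lower turned with the scale. Past 2 on both scales were 59 genes (0.682%) higher and 126 genes (1.46%) lower, and no gene passed in opposite directions. Below, a gene is called higher or lower only when it passed on both scales. Counts of called genes in the lists below are to be read against these shares of 0.682% higher and 1.46% lower. By the share of cells, 154 genes (1.78%) were found more often in 6C3+ and 86 (0.994%) less often, with 95% intervals that did not overlap. These exact Clopper-Pearson intervals cover counting error between cells only. With all 92 6C3+ cells 2 genes were higher and 1428 lower as deposited, and in 23 and 25 cells matched on detected genes 39 and 63 had shares apart. Intervals are wider with fewer cells, which alone can lower such counts.

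**Figure D1:**
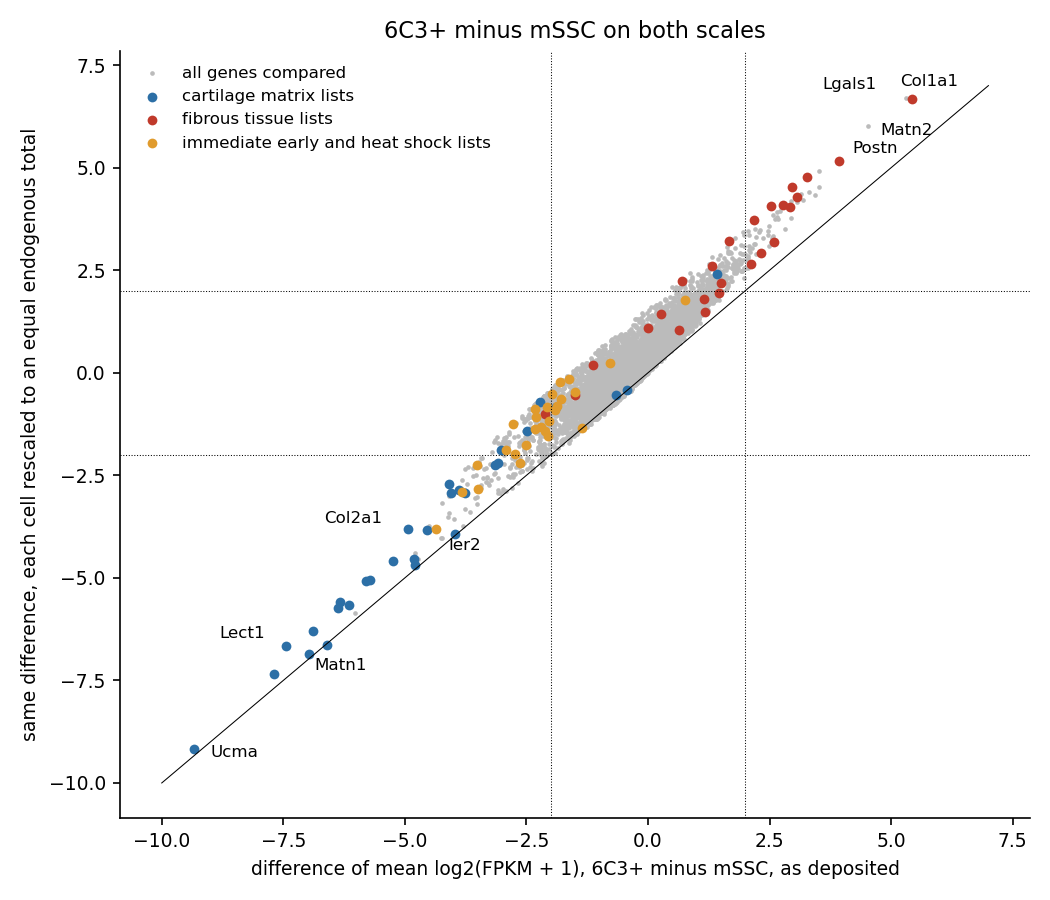
Difference of mean log2(FPKM + 1), 6C3+ minus mSSC, for 8650 genes as deposited (x axis) and after rescaling each cell (y axis), with dotted lines at a 4-fold difference and a solid line of equality. Rescaling shifts most points above the line of equality. Cartilage matrix genes (blue) reach -9.33 at Ucma and fibrous tissue genes (red) reach 5.43 at Col1a1. Immediate early and heat shock genes (orange) span -4.37 to 0.76 as deposited and overlap both groups.

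Cartilage matrix genes were lower in 6C3+ than in mSSC cells. Of 30 such genes, 23 were lower in 6C3+ and 0 higher, against 1.46% and 0.682% of all 8650 genes. Their median difference was -4.67 as deposited and -3.88 rescaled. The members of this and the following lists were chosen with earlier results of these data known, so a list's direction is no independent support. The lowest-ranked gene was Ucma, a small secreted protein of the upper growth plate, on chromosome 2 (4976122 to 4985748, plus strand, mm10). Ucma ranged from 0 to 1552 FPKM with a median of 0 in 6C3+ cells, and from 0 to 44464 with a median of 6697 in mSSC cells. It was held by 8 of 34 against 33 of 37 cells, and its difference was -9.33 (-9.17 rescaled). Most 6C3+ cells were at 0 while most mSSC cells were high, and the ranges overlapped through 8 positive 6C3+ cells and 4 mSSC cells at 0.

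Among the collagens, Col2a1, the main fibril collagen of cartilage, had a median of 938 FPKM (0 to 35600) in 6C3+ and 22488 FPKM (0 to 80221) in mSSC cells. It was still held by 27 of 34 6C3+ cells, against 35 of 37 mSSC cells, and its difference was -4.95 (-3.82 rescaled). Its shares overlapped, so the contrast lay in the level and less in the number of positive cells. Collagen IX, which coats the collagen II fibril, was also found in fewer cells. Col9a1 had a median of 45.3 FPKM (0 to 1665) against 2941 FPKM (0 to 11481), in 19 of 34 against 33 of 37 cells. Col9a2 had a median of 90 FPKM (0 to 3796) against 8007 FPKM (0 to 29501), with a difference of -6.33. Col9a3 was held by 16 of 34 against 35 of 37 cells and never passed 310 FPKM in 6C3+ cells. Col11a1 (-4.10), Col11a2 (-5.25) and Col27a1 (-3.08) made all 7 cartilage collagens lower, and 4 of the 7 had shares with intervals apart.

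All 12 proteoglycan and matrilin genes had the same sign on both scales, and 9 of them were lower. Matn1, a matrilin that links collagen fibrils and aggrecan, was listed at 0 in all 34 6C3+ cells, which allows a share of up to 8.82%, and was held by 25 of 37 mSSC cells with a median of 415 FPKM and a highest value of 7016. Its relative Matn3 was held by 5 of 34 against 32 of 37 cells, with a difference of -6.97. Others called lower were Chad (chondroadherin; -5.73), Epyc (epiphycan; -4.79), Acan (aggrecan; -4.06) and Hapln1 (link protein; -3.88). Snorc, a chondrocyte membrane proteoglycan listed under an older symbol, had a median of 0 against 2012 FPKM, in 8 of 34 against 32 of 37 cells, and differed by -7.69 (-7.34 rescaled). It is left out of the 15 leading lower genes only because its older symbol is that of an unnamed gene model. Comp differed by -2.48 as deposited and -1.43 rescaled, and Prelp by -1.89 and -0.83.

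Of 12 small secreted and membrane cartilage genes, 8 were lower. Lect1 (chondromodulin, an inhibitor of vessel growth), which is also a member of the previous list, had a median of 17.6 FPKM (0 to 6206) against 11046 FPKM (0 to 37780) and differed by -7.45. Mia had a median of 0 against 3077 FPKM and differed by -6.88. Cytl1 (-6.15; 10 of 34 against 28 of 37 cells), Scrg1 (-4.55), Susd5 (-4.80), Clec3a (-3.77) and Ncmap (-3.96; 1 of 34 against 19 of 37) were lower as well. Wif1, a secreted WNT inhibitor, had the opposite sign, 1.42 as deposited and 2.40 rescaled, in 21 of 34 against 15 of 37 cells. C1qtnf3, a secreted C1q-like protein outside these lists, was held by 6 of 34 against 27 of 37 cells and differed by -6.02.

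**Figure D2:**
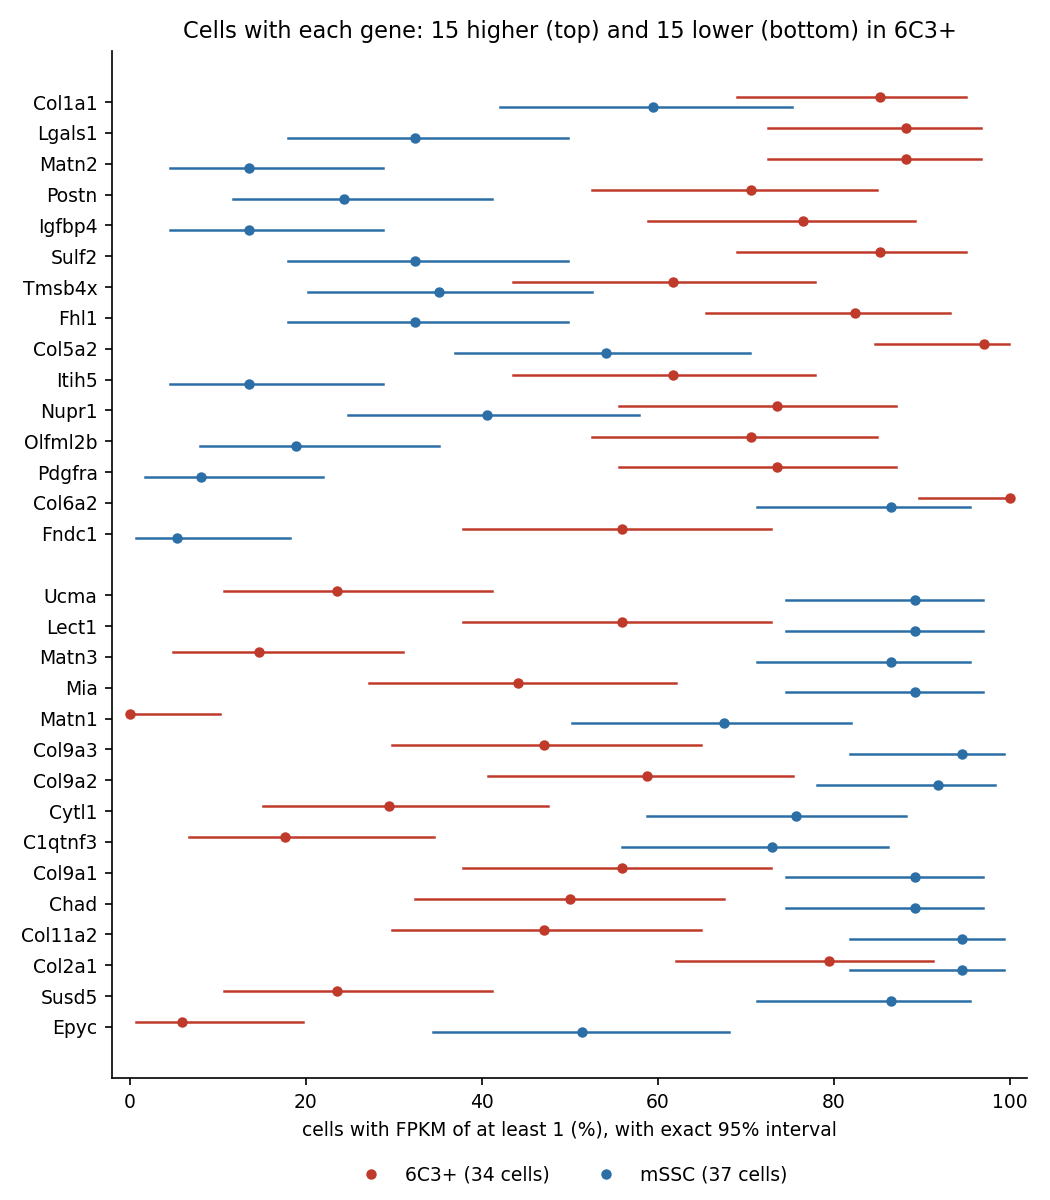
Percent of cells at FPKM of at least 1 with exact 95% intervals, in 6C3+ (red, 34 cells) and mSSC (blue, 37 cells), for the 15 leading genes of each direction. The intervals were apart for 11 of the 15 higher genes and for 14 of the 15 lower genes, the exception among the lower ones being Col2a1. Intervals apart were among the conditions by which these genes were picked, so these counts are no independent support. Over all 8650 genes 1.78% were apart as higher and 0.994% as lower.

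Of the 12 chondrogenic transcription factors, 9 were held by enough cells to be compared and 1 passed on both scales. Sox9 had a median of 171 FPKM (0 to 3183) in 6C3+ and 1270 FPKM (0 to 7598) in mSSC cells, held by 30 of 34 and 34 of 37 cells, and it differed by -2.85 as deposited but -1.45 rescaled. Its partners Sox5 (-1.47 and -0.88) and Sox6 (-2.20 and -1.82) had the same sign without passing on both scales. Of the 12 factors 1 was lower, Foxa3, a forkhead factor held by 1 of 34 against 17 of 37 cells. Trps1, a GATA-type repressor, was held by 32 of 34 against 23 of 37 cells, with intervals apart and differences of 0.90 and 2.33. Nfia and Nfib changed sign with the scale, from -1.01 to 0.50 and from -0.97 to 0.37. The list had a median of -0.99 as deposited and -0.05 rescaled.

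Hypertrophic chondrocyte genes were rare in both gates. Ihh was listed at 0 in the 34 6C3+ cells and held by 2 of 37 mSSC cells, and Col10a1 by 0 of 34 and 3 of 37. None of the 10 genes passed, but only 5 were held by enough cells to be compared. The median difference was -0.22 as deposited and -0.15 rescaled.

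Fibrous matrix genes ran in the other direction. Of 26 genes of the fibrous collagen and fibroblast lists, 12 were higher in 6C3+ and 0 lower, with a median difference of 1.59 as deposited and 2.62 rescaled. Col1a1, the main collagen of bone, tendon and periosteum, on chromosome 11 (94936224 to 94953042, plus strand), had a median of 2663 FPKM (0 to 56782) in 6C3+ and 3.29 FPKM (0 to 38184) in mSSC cells. It was held by 29 of 34 and 22 of 37 cells and differed by 5.43 (6.68 rescaled). Both ranges began at 0 and overlapped in full, while the middle of the 2 distributions was far apart. Its partner Col1a2 was held by nearly all cells, 34 of 34 and 36 of 37, at medians of 3273 and 783 FPKM, and differed by 1.67 as deposited and 3.21 rescaled.

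Of 12 fibrillar and fibrous collagens, 6 were higher and 0 lower. Col3a1 had a median of 656 FPKM (8.74 to 5942) against 263 FPKM (0 to 5080) and differed by 2.53. Col5a2, a collagen V chain that nucleates collagen I fibrils, had a median of 146 FPKM (0.352 to 886) against 1.84 FPKM (0 to 1975), in 33 of 34 against 20 of 37 cells. Col6a2 and Col6a3 were held by all 34 6C3+ cells, against 32 and 26 of 37 mSSC cells, and differed by 2.96 and 2.17. Col14a1, which sits on the surface of collagen I fibrils, was held by 25 of 34 against 6 of 37 cells. Col5a1 (1.32 and 2.60 rescaled), Col5a3 (1.45 and 1.95), Col6a1 (0.70 and 2.24), Col16a1 (0.26 and 1.44) and Col12a1 (-0.0078 and 1.08) did not pass on both scales. Over all 92 6C3+ cells, 58 of them under 1000 genes, Col3a1 (-1.74), Col5a2 (-0.19), Col6a2 (-1.54) and the median of the fibrillar collagen list (-1.51) changed sign.

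Of 14 fibroblast and periosteal genes, 6 were higher and 0 lower. Postn, a periosteal matricellular protein, had a median of 227 FPKM (0 to 4591) in 6C3+ and 0 FPKM (0 to 13154) in mSSC cells, was held by 24 of 34 against 9 of 37, and differed by 3.94. Pdgfra, the PDGF receptor of mesenchymal fibroblasts, on chromosome 5 (75152292 to 75198215, plus strand), was held by 25 of 34 (73.5%, 55.6 to 87.1) against 3 of 37 cells (8.11%, 1.70 to 21.9) and differed by 3.06. Dpt (12 of 34 against 2 of 37 cells), S100a4 (13 against 2) and Gas1 (27 against 17; 2.78) were higher too, Gas1 turning to -0.37 over all cells. Ly6a, which encodes the antigen Sca-1, was held by 11 of 34 6C3+ cells, up to 1839 FPKM, and was listed at 0 in all 37 mSSC cells. Dcn (-1.50 and -0.55) and Lum (-2.13 and -1.0), common fibroblast proteoglycans, had the opposite sign and did not pass on both scales.

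Several leading genes lay outside the collagens. Matn2, a matrilin found in many connective tissues, on chromosome 15 (34306677 to 34436273, plus strand), was held by 30 of 34 against 5 of 37 cells at a median of 49.6 FPKM (0 to 1980) against 0 FPKM (0 to 395), and differed by 4.53 (6.01 rescaled). Matrilins therefore split between the gates, with Matn1 and Matn3 lower and Matn2 higher in 6C3+. Lgals1, the galectin-1 gene, had a median of 320 FPKM (0 to 2878) against 0 FPKM (0 to 5928), in 30 of 34 against 12 of 37 cells, and differed by 5.30. Sulf2, a sulfatase that edits heparan sulfate, was held by 29 of 34 against 12 of 37 cells, and Itih5, a hyaluronan-binding protein, by 21 against 5. Fhl1 (28 against 12), Olfml2b (24 against 7) and Fndc1 (19 against 2) had shares with intervals apart as well.

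**Figure D3:**
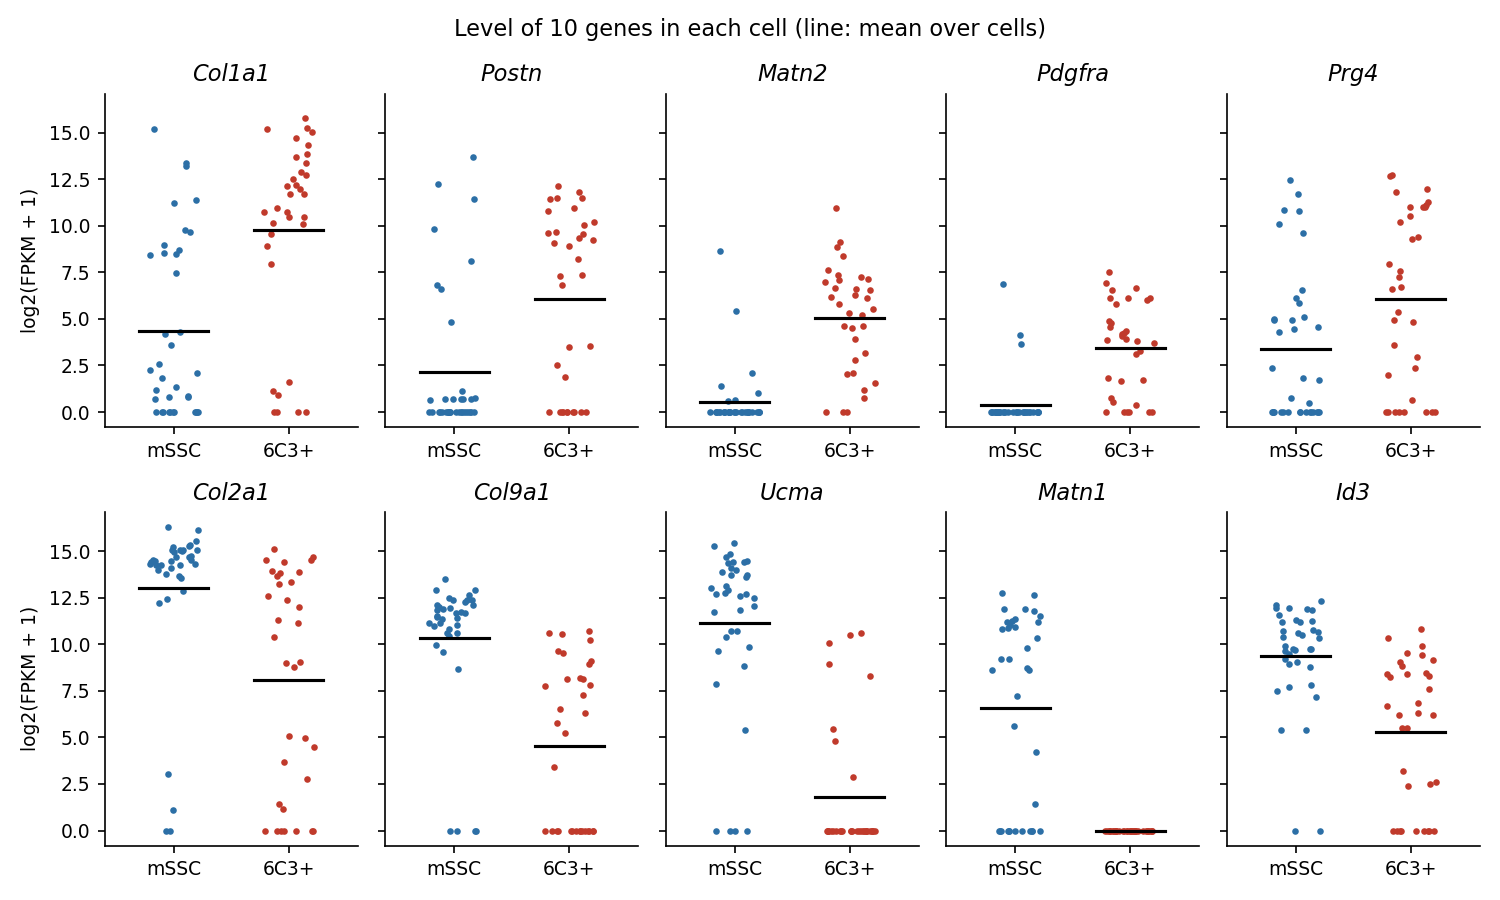
Level of 10 genes in each cell as log2(FPKM + 1), with mSSC in blue, 6C3+ in red and a line at the mean over cells; points are spread sideways at random. Matn1 is at 0 in every 6C3+ cell, while Col2a1 and Prg4 have high and zero cells in both populations.

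The 250 bases upstream of the start are shown for 2 leading genes of each direction, Ucma and Chad (lower) and Igfbp4 and Pdgfra (higher), to set the promoters of genes that moved apart side by side. They are from RefSeq on GRCm38.p6, read 5′ to 3′ on the gene's strand, and capitals mark a TATA box match.
Ucma, chr2:4975872-4976121, plus strand: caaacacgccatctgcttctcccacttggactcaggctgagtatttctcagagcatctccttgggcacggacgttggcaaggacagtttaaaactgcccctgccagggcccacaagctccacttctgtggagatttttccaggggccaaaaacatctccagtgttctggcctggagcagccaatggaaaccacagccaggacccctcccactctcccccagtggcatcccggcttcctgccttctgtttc
Chad, chr11:94564797-94565046, plus strand: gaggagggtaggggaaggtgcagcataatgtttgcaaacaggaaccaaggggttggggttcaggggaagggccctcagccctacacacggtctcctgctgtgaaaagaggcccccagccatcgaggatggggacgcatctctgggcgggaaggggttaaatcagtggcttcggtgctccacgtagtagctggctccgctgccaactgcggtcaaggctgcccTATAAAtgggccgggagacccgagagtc
Igfbp4, chr11:99040994-99041243, plus strand: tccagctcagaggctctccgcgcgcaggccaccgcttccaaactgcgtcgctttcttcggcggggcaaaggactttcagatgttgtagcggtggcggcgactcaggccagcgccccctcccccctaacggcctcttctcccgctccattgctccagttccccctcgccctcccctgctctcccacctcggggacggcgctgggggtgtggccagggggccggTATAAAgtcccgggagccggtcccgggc
Pdgfra, chr5:75152001-75152250, plus strand: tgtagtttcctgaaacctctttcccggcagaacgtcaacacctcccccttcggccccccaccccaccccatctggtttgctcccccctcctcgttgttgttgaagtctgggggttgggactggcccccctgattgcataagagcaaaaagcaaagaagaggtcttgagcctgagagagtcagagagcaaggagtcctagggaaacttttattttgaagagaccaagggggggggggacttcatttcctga
Chad and Igfbp4, which differed in opposite directions, both held TATAAA, and Ucma and Pdgfra did not. On either strand TATAAA occurred in 5 of 11 named higher genes and 3 of 12 named lower genes with a window, against 14.3% of 27025 genes. The SOX core ACAATG, searched on both strands, occurred in 0 of 11 and 1 of 12 (Epyc), against 12.2% of all genes. These matches describe letters in the window only.

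Joint surface genes mostly differed above 0, 9 of 12 as deposited and 10 rescaled, with 3 and 2 below 0. Their median difference was 1.02 as deposited and 1.31 rescaled, and it turned to -0.15 over all cells. Prg4, which encodes lubricin of the articular surface and synovium, had a median of 101 FPKM (0 to 6813) in 6C3+ and 2.35 FPKM (0 to 5650) in mSSC cells, held by 25 of 34 and 19 of 37, and differed by 2.72 (3.95 rescaled). Its shares overlapped and its difference was -0.063 over all cells. Thbs4, a thrombospondin of tendon and joint, was held by 16 of 34 against 2 of 37 cells and differed by 2.82. Creb5, a factor of the articular surface, was held by 18 of 34 against 5 of 37 cells, with differences of 1.65 and 2.57. Gdf5, a ligand of the joint interzone, was held by 2 cells in each population. Of the 12 genes 2 were higher, Prg4 and Thbs4, and 0 lower. Among tendon genes, Thbs4 was higher and Fmod (fibromodulin; -3.16) lower, and Tnmd was held by 8 of 34 against 2 of 37 cells.

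Many bone and marrow support genes were held by too few cells to be compared: 7 of 18 osteoblast and 8 of 14 marrow niche genes passed the 10% filter. Of these, 1 and 2 were higher, against 0.682% of all 8650 genes. Of 18 osteoblast genes only Col1a1 was higher, and the median difference was 0.00 as deposited and 0.07 rescaled. Runx2, the osteoblast regulator, was held by 4 of 34 and 5 of 37 cells, Sp7 by 1 and 2, and Alpl by 3 and 0. Among 14 marrow niche genes, Igfbp4 (26 of 34 against 5 of 37 cells; 3.53) and Igfbp5 (21 against 6; 2.46), binding proteins that hold insulin-like growth factors, were higher. Csf1, the macrophage growth factor, was held by 15 of 34 against 3 of 37 cells with intervals apart and a difference of 1.46. Cxcl12 was held by 7 of 34 against 3 of 37 cells, Kitl by 3 against 0, Lepr by 1 against 0 and Il7 by 0 against 1. In the adipogenic list Cebpb was lower (-3.57; 12 of 34 against 26 of 37 cells) and Pparg was held by 0 and 2 cells.

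**Figure D4:**
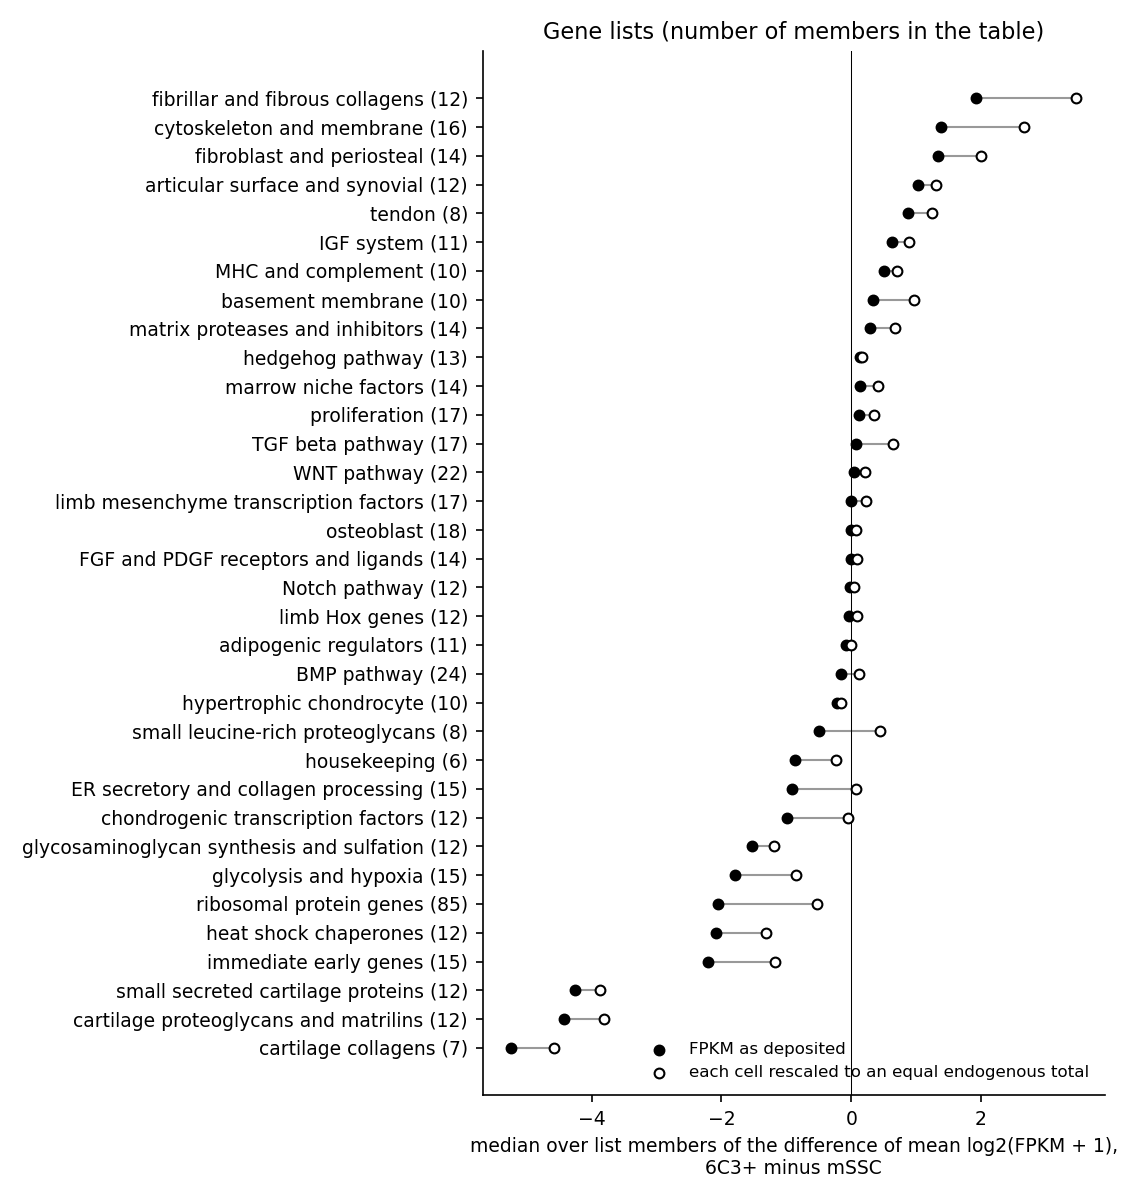
Median difference over the members of each list, 6C3+ minus mSSC, as deposited (filled) and after rescaling (open), with the number of members in brackets. The 3 cartilage matrix lists lie at -3.81 or lower on both scales, and the fibrillar collagens at 1.92 and 3.47 lie farthest to the right.

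Of 24 BMP genes 3 were lower and 0 higher, and the list's median turned from -0.15 to 0.11 with rescaling. The 3 encode inhibitors of differentiation, transcribed in response to BMP signalling: Id1 (-3.28), Id2 (-3.77) and Id3 (-4.09). Id3 had a median of 75.9 FPKM (0 to 1800) against 946 FPKM (0 to 5040), in 25 of 34 against 35 of 37 cells. The shares of all 3 overlapped. Other genes that BMP signalling is known to induce were not called: Smad6 (0.046 and 0.29), Smad7 (0.43 and 1.45) and Bambi (-0.39 and -0.21). The ligand gene Bmp4 was held by 10 of 34 and 3 of 37 cells, the antagonist Nog by 4 and 5, and the receptor Bmpr1a by 20 of each.

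Of 22 WNT genes 1 was higher, Dkk3, and 1 lower, Lef1. Lef1, a transcription factor and WNT target, was listed at 0 in the 34 6C3+ cells and held by 12 of 37 mSSC cells (32.4%, 18 to 49.8). Frzb, a secreted WNT antagonist of cartilage, was held by 2 of 34 against 13 of 37 cells, with intervals apart, and was not called (-1.90 and -1.95). Dkk3, of the Dickkopf family, was held by 23 of 34 against 7 of 37 cells (2.36). The target Axin2 was held by 3 and 1 cells.

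Among FGF and PDGF receptors, Pdgfra was higher and Fgfr3 lower. Fgfr3, the receptor that restrains growth plate chondrocytes, was held by 4 of 34 (11.8%, 3.30 to 27.5) against 21 of 37 cells (56.8%, 39.5 to 72.9) and was lower (-2.77). Fgfr1 (0.16 and 1.64) was not called, and Fgfr2 changed sign with the scale (-0.18 and 0.70). With Pdgfra higher, Pdgfrb was held by 20 of 34 against 8 of 37 cells, intervals apart, and differed by 1.55 and 2.38. Cspg4, also a pericyte marker, went the other way, in 17 of 34 against 31 of 37 cells (-3.23).

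Of 11 IGF system genes 2 were higher, Igfbp4 and Igfbp5 as given above, and 1 lower, H19. The other binding protein genes were not called, among them Igfbp7 (1.02 and 2.40) and Igfbp3 (0.37 and 0.64). Igf1 was held by 13 of 34 against 2 of 37 cells (1.82 and 2.44). Its imprinted relative Igf2 had medians of 545 FPKM (0 to 4210) and 2793 FPKM (482 to 11698), held by 33 of 34 and all 37 cells, and differed by -2.71 and -1.22. H19, the imprinted noncoding RNA next to Igf2, was lower, with medians of 543 FPKM (0 to 3724) and 5564 FPKM (37.1 to 23294) and a difference of -3.76 (-2.34 rescaled).

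In the other signalling lists at most 1 gene each was called, against 0.682% of all genes higher and 1.46% lower. Ctgf, a matricellular target of TGF beta, was lower (-3.77; 11 of 34 against 31 of 37 cells) and the only 1 of 17 TGF beta genes called, while Ltbp4, a latent TGF beta binding protein, was held by 20 of 34 against 4 of 37 cells. In the hedgehog list Gas1 was higher, and Gli3 was held by 20 of 34 against 6 of 37 cells (1.90 and 2.69). No Notch gene was called, with 5 of 12 compared. Jag1 (18 against 6 cells) and the pathway's DNA-binding effector Rbpj (20 against 5) nevertheless had shares with intervals apart. None of the 12 limb Hox genes (9 compared), 17 limb mesenchyme factors (9 compared) or 17 proliferation genes passed. So few genes cannot show a difference from the shares over all genes. Mki67 was held by 6 of 34 and 5 of 37 cells.

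Of 16 cytoskeleton and membrane genes, 8 were higher and 0 lower, with a median of 1.38 as deposited and 2.66 rescaled. The other 8 were not called, and 6 of the 16 were below 0 as deposited and 3 rescaled, among them Anxa2 (-0.76 and 0.79), Anxa5 (-0.73 and 0.73) and Cav2 (-0.43 and -0.20). Those higher included Tmsb4x, an actin-binding peptide (3.43), Cav1, the coat protein of caveolae (2.68; 23 of 34 against 9 of 37 cells), Anxa1 (2.29), Vim (2.08), S100a6 (2.65) and Tagln2 (2.65). The list's median turned to -0.33 with the log2 of the mean FPKM and to -1.36 over all cells, as did Tagln2 (-0.38 and -0.48) and S100a6 (-0.0086 and -1.57). Mmp14, a membrane collagenase, was higher in 27 of 34 against 12 of 37 cells (2.30; -0.064 over all cells), and Nupr1, a stress-induced nuclear protein, differed by 3.15 but by -0.99 over all cells.

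How many stress-response transcripts were lower in 6C3+ moved with the scale. Of 15 immediate early genes 9 passed as deposited and 3 on both scales: Ier2 (-4.37; 14 of 34 against 30 of 37 cells), Atf3 (-3.83) and Btg2 (-3.51). Fos differed by -2.33 as deposited and -0.89 rescaled. Of 12 heat shock chaperones 8 passed as deposited and 2 on both scales, Dnajb1 (-3.50) and Hsph1 (-2.64). Ribosomal protein genes showed the same pattern, with 45 of 85 lower as deposited, 3 on both scales, and medians of -2.05 and -0.53. Their share of endogenous FPKM had a median of 9.04% (6.10 to 13.8) in 6C3+ and 12% (5.01 to 22.3) in mSSC cells. The endogenous totals given above differ in the same direction, and their part in these values was not tested.

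Within the 6C3+ gate the cartilage genes were not spread evenly. A 6C3+ cell held a median of 17.5 of the 30 cartilage matrix genes (0 to 25), against 26 (3 to 29) in mSSC. Of 34 6C3+ cells, 14 held fewer than 10 and 12 held at least 20, against 3 and 33 of 37 mSSC cells. Fibrous genes were held at a median of 16 of 26 (10 to 23) in 6C3+ and 11 (6 to 21) in mSSC. Col2a1 exceeded Col1a1 in FPKM in 12 of 34 6C3+ and 33 of 37 mSSC cells.

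**Figure D5:**
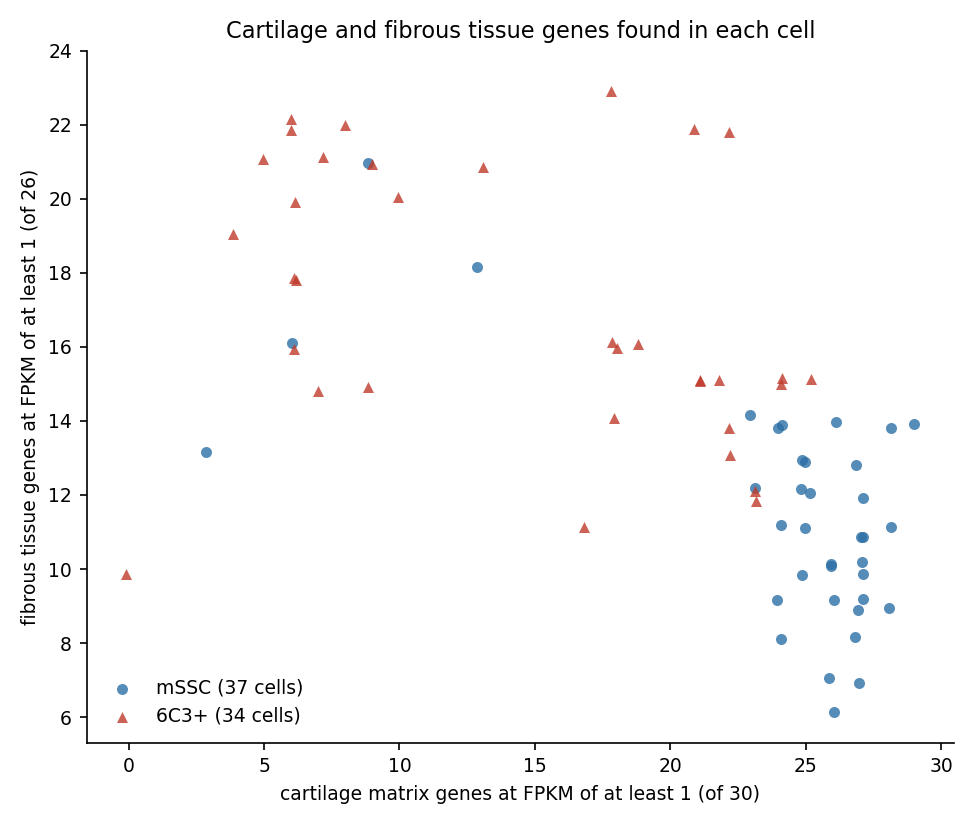
Number of cartilage matrix genes (x axis, of 30) and fibrous tissue genes (y axis, of 26) at FPKM of at least 1 in each cell, with small random offsets so that points do not cover each other. Most mSSC cells (blue circles) lie at 23 to 29 cartilage genes, and 6C3+ cells (red triangles) lie at 0 to 10 or at 17 to 25, except 1 cell at 13.

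All 3 collagen IX genes were found together in 16 of 34 6C3+ cells and none of them in 14, against 33 and 1 of 37 mSSC cells. As a description of cells divided by these genes, Prg4 was held by 16 of the 16 6C3+ cells with all 3 and by 6 of the 14 with none. Postn was held by 6 of 16 and 14 of 14, and Col1a1 by 11 of 16 and 14 of 14. Pdgfra (13 of 16 and 8 of 14) and Matn2 (13 of 16 and 13 of 14) were found in most cells of both kinds, so these genes were not limited to 6C3+ cells without collagen IX. Matn1 was at 0 in both.

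The other populations place these levels. In cells with at least 1000 genes, Matn2 was held by 2 of 11 CSP and 29 of 43 THY+ cells, and Pdgfra by 0 and 22. Matn1 was held by 10 of 11 CSP cells and 2 of 43 THY+ cells. Prg4 was held by 1 of 11 CSP and 14 of 43 THY+ cells, against 25 of 34 in 6C3+, and Postn by 41 of 43 THY+ cells, against 24 of 34. Col1a1 and Lgals1, the leading higher genes, were held by 42 and 41 of 43 THY+ cells, against 29 and 30 of 34 in 6C3+. Ucma was held by 8 of 43 THY+ and 7 of 11 CSP cells. The differences of Matn2, Pdgfra, Matn1, Postn, Col1a1, Lgals1 and Ucma from mSSC were thus not particular to 6C3+ cells, as THY+ cells shared them. Prg4 was the exception, as THY+ and CSP cells held it less often than mSSC cells (19 of 37). Only 6C3+ cells held Prg4 more often than mSSC cells, with intervals that overlapped. Enpep was found in 3 of 43 THY+ cells.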

How the data were processed

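The authors deposited 1 table of FPKM values per cell for 24388 genes and 92 ERCC spike-ins, which were left out. Per the submitters' processing notes, SAMtools and the mm10 build were used. Which aligner, FPKM program, annotation and cell filters were used is not given in the sources used here. Whole reads cannot be recovered from these FPKM values, so depth per cell is unknown. Mitochondrial genes in the table numbered 0. Per the labels, capture sites were imaged and single live cells kept, and no doublet caller was run. Columns were matched to cells by index names, and 0 columns were identical.

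Differences of mean log2(FPKM + 1), with a pseudocount of 1, and exact Clopper-Pearson intervals were computed with Python 3.11.15, numpy 2.4.6, pandas 2.3.3 and scipy 1.17.1, with figures from matplotlib 3.10.9. The calculation was tested on simulated data. Where no cell of a population held a gene, the share allowed is 3 cells of its total. Coordinates are from GENCODE vM21 (mm10).

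Named genes were the 15 highest and 15 lowest among genes held by at least 50% of the higher population's cells and called on both scales or with intervals apart, up to 5 members of each of 43 lists by absolute difference, all sort antigens, and called regulators, ligands and receptors. The first rule skipped unnamed gene models (Snorc among them, through its older symbol), pseudogenes, ribosomal protein genes and markers of sex. Any further gene was picked with its values in view. The members and lists were chosen with earlier results of these data known. List genes were matched through current and older symbols, and 483 were in the table and 1 (Hbb-bt) was not. A list's median covers all of its genes in the table, and its calls cover those that passed the 10% filter. Alternatives were other pseudocounts, scalings, cell and gene filters, detection limits and leaving out each index row.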

Additional observations from a re-analysis of the deposited data

How the results depend on the processing

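All 30 leading genes kept their sign under every alternative to pseudocount, scaling, gene filter and cells except all cells, where 27 did, and 29 after rescaling (Nupr1 at -0.36). Past 2 were 21 with a pseudocount of 10, 19 with the log2 of the mean, 16 over all cells (22 rescaled) and 30 otherwise. The 30 were picked from these same cells as the largest differences that passed on both scales or had intervals apart. A gene filter cannot change a gene's difference. Their kept signs are therefore no independent support. From 59 genes higher and 351 lower, the counts became 263 and 590 with a pseudocount of 0.1, 7 and 146 with a pseudocount of 10, 246 and 126 after rescaling, and 422 and 2205 with the log2 of the mean. Over all cells they were 2 and 1428 as deposited, 17 and 1112 rescaled, and 6 and 2227 by share of cells. In the 6C3+ cells with the lower spike-in share 146 were higher. Leaving out each index row gave 52 to 79 higher and 289 to 392 lower, and 237 to 307 and 110 to 148 rescaled. Genes found more often went from 154 to 39 in cells matched on detected genes, 79 without 6C3+ cells with an endothelial marker and 54 with detection at an FPKM of at least 10. Genes found less often went from 86 to 63, 89 and 116 in the same settings. The first 2 settings hold fewer cells, which widens the intervals and can lower a count by itself. Chosen after seeing the data were the rescaled and share counts over all cells, the rescaled counts without each index row, and the following settings. Without the 4 mSSC cells with few cartilage genes, 322 and 153 passed after rescaling. In cells matched on endogenous total (251485 to 737270 FPKM, 23 and 12 cells) 333 and 140 passed, and 564 and 168 after rescaling. A match on the 10th to 90th percentiles of that total left 6 cells each and was not run. A turned sign was recorded only for named genes at least 2 from 0 as deposited and for lists with a median at least 1 from 0. Smaller differences were left out of this record, and some turned with rescaling, among them Nfia and Nfib. Signs turned with the log2 of the mean for S100a6 (-0.0086), Tagln2 (-0.38) and the cytoskeleton list (-0.33). Over all cells they turned for Col3a1 (-1.74), Col5a2 (-0.19), Col6a2 (-1.54), Gas1 (-0.37), Mmp14 (-0.064), Nupr1 (-0.99), Prg4 (-0.063), S100a6 (-1.57), Tagln2 (-0.48) and the articular (-0.15), fibrillar collagen (-1.51) and cytoskeleton (-1.36) lists. Pdia3 turned to 0.43 in cells matched on endogenous total and 0.81 after rescaling. The cause was not tested. No paired analysis was possible because each population is 1 sample and its cells carry no pairing number. Depth in reads is unknown, so a value of 0 does not show that a transcript is absent.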

Other observations

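Genes that build and sulfate glycosaminoglycans, the sugar chains of cartilage proteoglycans, were lower in 6C3+ in 4 of 12 cases and higher in 0. Over all 8650 genes 1.46% were lower and 0.682% higher. Chst11, a chondroitin sulfotransferase, was held by 1 of 34 6C3+ against 19 of 37 mSSC cells (-3.05), and Chst12 (-2.59), the sulfate donor synthase Papss2 (-2.71) and Ugdh (-2.84), which makes UDP-glucuronate, were the others. Slc26a2, the sulfate transporter, was held by 3 against 14 cells (-1.76). Chst3 had the opposite sign, in 10 of 34 against 1 of 37 cells (1.36), with intervals apart. Of 15 glycolysis and hypoxia genes 4 were lower and 0 higher: Eno1 (-3.43), Bnip3 (-2.95), the glucose transporter gene Slc2a1 (-2.77) and Hk2 (-2.63). Hif1a, the hypoxia regulator, had the opposite sign (0.53 and 1.82), and Vegfa was held by 8 of 34 and 10 of 37 cells.

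B2m, the light chain of MHC class I, was held by 32 of 34 against 25 of 37 cells and differed by 1.95 as deposited and 3.44 rescaled, and H2-D1 by 1.37 and 2.11. In collagen processing and the secretory pathway 0 of 15 genes passed on both scales and the median turned from -0.91 to 0.08 with rescaling. Of 10 basement membrane genes 9 were compared and 0 called, although Col4a1 was held by 17 of 34 against 3 of 37 cells. Among small leucine-rich proteoglycans Aspn was higher (2.54; 17 of 34 against 7 of 37 cells).

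The 58 6C3+ cells under 1000 genes were not in the comparison. Col1a1 was held by 48 of them (82.8%, 70.6 to 91.4), against 29 of 34 above that number, at a median of 34.3 FPKM. Col2a1 was held by 35, Prg4 by 21, Postn by 13, Matn2 by 8 and Pdgfra by 4, while Gapdh was held by 2. Matn1 and Enpep were listed at 0 in all 58.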
